A study of Mus musculus with 4 samples.

Results

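The 10 genes described here encode parts of the Notch pathway: the receptors Notch1, Notch2 and Notch3, the ligands Jag1, Jag2 and Dll4, the DNA-binding factor Rbpj, and the target genes Hes1, Hey1 and Heyl. They were chosen by name, as probe sets whose platform annotation names 1 gene only, and all 10 were found among the 18193 genes with such a probe set. Together they had 21 probe sets, of which 19 lay above the signal filter of 6.13 (the 40th percentile over the non-control probe sets, on the log2 scale). Each gene was represented by its brightest probe set, and all 10 passed the filter.

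The arrays compared cells from Lgr4 homozygous mutant mice (2 arrays) with cells from wild-type mice (2 arrays). Donors in both groups were males aged 4 months. Stromal vascular cells, the mixture left when mature fat cells are removed, were taken from epididymal white fat, grown to confluence with 10 ng/ml bFGF and 10% FBS, and turned into brown-like adipocytes in culture. Both genotypes received insulin (5 µg/ml), isobutylmethylxanthine (0.5 mM), dexamethasone (1 µM), T3 (50 nM) and troglitazone (5 µM, a drug that activates PPAR gamma) for 48 h, then insulin, T3 and troglitazone for 6 days. Lgr4 is a receptor for R-spondins that strengthens the response to Wnt ligands. The kind of Lgr4 allele, and whether each array came from a separate animal, were not stated in the labels. The sample titles call the arrays of each genotype biological replicates. As separate animals are not stated, the p-values measure the spread between the arrays alone, which may differ from that between animals.

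Notch receptors are single-pass membrane proteins that are activated by ligands on a neighbouring cell. Binding lets the protease Adam10 and then gamma-secretase cut the receptor, and the freed intracellular domain enters the nucleus, joins Rbpj and Mastermind-like coactivators, and switches on Hes and Hey genes, which encode transcriptional repressors. In mouse fat, loss of Notch1 or Rbpj in adipocytes is known to favour browning of white fat, and the pathway also acts in endothelial and mural cells of vessels. Notch signalling is set largely by cleavage of protein, so transcript levels of receptors and ligands do not report its activity directly.

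Of the 10 genes, 2 were lower in mutant cultures past an adjusted p of 0.05 (limma, Benjamini-Hochberg over 13173 genes) and none was higher. The genes that fell were Notch2 and Rbpj. Over all genes tested 29.8% passed, 11.1% higher and 18.7% lower, so a share of 2 in 10 lies near the background and is not a result about the set. Without an adjustment, Heyl also had a limma p under 0.05. That looser cutoff is passed by at least the same 29.8% of all genes tested. The differences ran from -0.91 for Notch2 to 0.29 for Heyl on the log2 scale, with a median of 0.05 against -0.03 over all genes tested, and 5 of the 10 were above 0. The 2 mutant and 2 wild-type values did not overlap in 7 of the 10 genes, against 68.8% of all genes tested. None of the 10 reached a 2-fold difference, which 4.08% of all genes tested did.

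**Figure D1:**
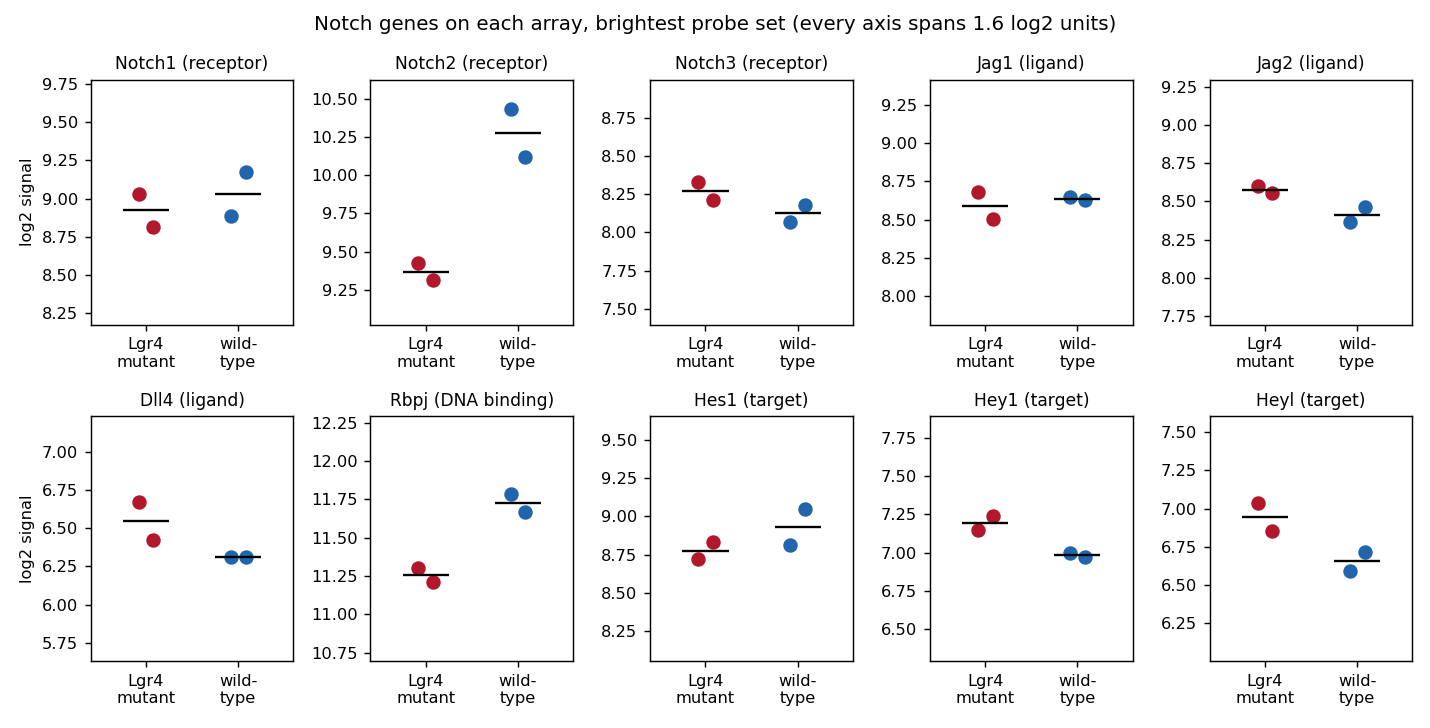
Log2 signal of the 10 Notch genes on each array (points), with Lgr4 mutant cultures left of wild-type cultures in each panel and horizontal bars for the mean of 2 arrays. Every vertical axis spans the same range, so the separation of Notch2 (9.43 and 9.31 against 10.43 and 10.12) and of Rbpj (11.30 and 11.21 against 11.78 and 11.67) can be set against the smaller gaps elsewhere.

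The start regions of Notch2 and Rbpj are shown because these were the genes that fell. Promoter windows were listed in the RefSeq table (GRCm38.p6) for 7 of the 10 genes, 8 windows in all, each reaching from 250 bases before a transcript start to 50 after it. No window was listed for Hes1, Hey1 or Heyl. The 250 bases before the start are printed on the + strand, 5′ to 3′, for Notch2 at chr3:98013288-98013537 and for the upstream one of 2 listed Rbpj starts at chr5:53590096-53590345. Both listed Rbpj starts lie inside the annotated gene (chr5:53555779-53657445), so no window covers its outermost start. Capitals mark letters that match a searched motif on either strand.
Notch2: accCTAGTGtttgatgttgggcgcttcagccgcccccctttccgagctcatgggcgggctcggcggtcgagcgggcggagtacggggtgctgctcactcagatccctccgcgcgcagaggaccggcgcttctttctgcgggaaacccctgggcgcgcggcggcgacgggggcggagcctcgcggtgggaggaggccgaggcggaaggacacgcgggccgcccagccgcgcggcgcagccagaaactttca
Rbpj: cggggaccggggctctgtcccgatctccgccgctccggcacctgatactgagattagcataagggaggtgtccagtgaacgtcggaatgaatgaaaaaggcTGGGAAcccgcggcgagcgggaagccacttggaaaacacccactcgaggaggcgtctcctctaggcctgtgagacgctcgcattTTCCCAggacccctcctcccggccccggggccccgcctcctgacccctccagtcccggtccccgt

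Both stretches were rich in G and C, at 72.0% for Notch2 and 65.2% for Rbpj. The capitals in Rbpj are 2 matches to TGGGAA, a core of the sites that Rbpj itself binds, of which 1 lies on the opposite strand. The 300-base windows of Notch1, Notch2, Notch3, Jag1, Jag2 and Dll4 held no TGGGAA, and none of the 8 windows held the longer form GTGGGAA or the E-box CACGTG. The capitals in Notch2 are 1 match to CACNAG, the N-box bound by Hes proteins, on the opposite strand. Notch1 had 3 such matches in its 300-base window, Notch3 had 2 and Dll4 had 1, and the Jag1, Jag2 and Rbpj windows had none. Of all 32851 windows in the table, 25.6% held TGGGAA, 6.4% GTGGGAA, 7.2% CACGTG and 42.5% CACNAG, each counted on both strands, and every GTGGGAA is also counted as a TGGGAA. These are matches of letters in a short window and say nothing of binding.

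The labels and the other cells of the cultures were checked with marker genes. Lgr4 read 6.18 and 6.09 in mutant cultures, against 8.65 and 8.20 in wild-type cultures (-2.29), by its brightest probe set. The other one, below the filter, read 5.37 and 5.31 in mutant cultures, against 5.28 and 5.23 in wild-type cultures, and the average of both gave -1.10. All 9 tested adipocyte markers rose in the mutant, including Adipoq (3.22) and Fabp4 (1.19), and their summed linear signal was 115000 to 117000 in mutant cultures and 41600 to 44000 in wild-type cultures. Of 6 tested brown-fat markers 4 rose and 2 did not pass. Sums over all 8 on the array, with Cidea and Ppargc1a below the filter, were 4610 to 5270 in mutant cultures. In wild-type cultures they were 924 to 1070. Ucp1 read 8.17 and 7.49 in mutant cultures, against 4.99 and 5.86 in wild-type cultures, where it lay below the filter (2.40, adjusted p = 5.68e-04). Elovl3 rose by 4.16, from 5.70 and 6.44 in wild-type cultures, the first of these below the filter of 6.13. Cidea was below the filter on all 4 arrays. Of 10 markers of mural cells, the smooth muscle cells and pericytes that wrap vessels, 3 rose and 5 fell. Among them were Rgs5 (-2.09), Acta2 (-0.56) and Cspg4 (0.39). Rgs5 read 5.70 and 5.62 in mutant cultures, below the filter. Sums over the 10 mural markers were 26300 to 30400 in mutant cultures and 40700 to 41700 in wild-type cultures. The brightest, Acta2 and Tagln, both lower in the mutant, weigh most in these sums. Of 9 tested endothelial markers 1 rose, Cdh5 (0.42, adjusted p = 0.041), and 8 did not pass, including Pecam1 (0.21) and Kdr (0.10); without the signal filter none passed. Endothelial sums over all 10 on the array, with Tie1 below the filter, were 1730 to 1920 in mutant cultures and 1540 to 1640 in wild-type cultures. Macrophage markers fell in 4 of 8 cases, with sums of 63100 on both mutant arrays and 74300 to 77000 on the wild-type arrays. Progenitor markers fell in 2 of 7 cases and 5 did not pass. Progenitor sums were 20700 to 21200 in mutant cultures and 23400 to 23900 in wild-type cultures. Over all genes tested 11.1% rose and 18.7% fell. With lists this short, the macrophage, progenitor and mural counts are not read as results about those cells. The part of these cell types in the Notch values was not tested, and in bulk RNA fewer cells of a type and less RNA per cell cannot be told apart.

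Among the receptors, Notch2 differed between genotypes and the test was not passed for Notch1 or Notch3. Notch2, a widely expressed receptor, read 9.43 and 9.31 in mutant cultures, against 10.43 and 10.12 in wild-type cultures. Both mutant arrays lay below both wild-type arrays, by more than either pair was apart. The means were 9.37 ± 0.080 and 10.28 ± 0.22 (SD, n = 2 each), a log2 difference of -0.91 (SE 0.12, 95% interval -1.19 to -0.62, limma adjusted p = 0.00109), or 1.87-fold lower in the mutant. Only 4.87% of all genes tested had a larger absolute difference. The other Notch2 probe set did not show it: it read 5.92 and 5.96 in mutant cultures, against 5.79 and 5.91 in wild-type cultures, below the filter on all 4 arrays. With both probe sets averaged the Notch2 difference was -0.41 (adjusted p = 0.0115).

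Notch1, the best-studied receptor of the family, read 9.03 and 8.82 in mutant cultures, against 8.89 and 9.17 in wild-type cultures. These values overlapped, and the difference of -0.11 had a 95% interval of -0.40 to 0.19 (adjusted p = 0.561). Its other probe set gave a difference of -0.011. Notch3, the receptor best known from vascular smooth muscle and pericytes, read 8.33 and 8.21 in mutant cultures, against 8.07 and 8.18 in wild-type cultures. The mutant pair lay just above the wild-type pair, with a difference of 0.15 (95% interval -0.079 to 0.37, adjusted p = 0.292), and 0.12 by its other probe set. For Notch1 and Notch3 the intervals leave out a fall of the size measured for Notch2. Whether the 3 receptors differ from each other in their response was not tested.

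None of the 3 ligands passed the test. Jag1, a ligand studied in fat cell precursors, read 8.68 and 8.50 in mutant cultures, against 8.65 and 8.63 in wild-type cultures. The mutant values lay on both sides of the wild-type values, and the difference of -0.047 had a 95% interval of -0.28 to 0.18 (adjusted p = 0.755). The other 2 Jag1 probe sets, both dim, gave 0.058 and 0.30 with overlapping values, so no direction is given for Jag1. Its sign also turned when probe sets were averaged (0.10) and under both other scalings tried, quantile normalization (0.027) and centring on the median (0.0066).

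Jag2, a ligand of the same Serrate-like class, read 8.60 and 8.55 in mutant cultures, against 8.36 and 8.46 in wild-type cultures. The pairs did not overlap, and the difference was 0.16 (95% interval -0.052 to 0.38, adjusted p = 0.223), and 0.14 by the other probe set. Dll4, the Delta-like ligand of endothelial tip cells, read 6.67 and 6.42 in mutant cultures, against 6.31 and 6.31 in wild-type cultures. Its signal was close to the filter of 6.13. The difference was 0.24 (95% interval -0.017 to 0.49, adjusted p = 0.142), and 0.18 by its other probe set, which read 6.45 and 6.45 in mutant cultures, against 6.29 and 6.24 in wild-type cultures. Both mutant arrays were thus above both wild-type arrays on each Dll4 probe set, by amounts the test did not pass.

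Rbpj, the factor through which all Notch receptors reach DNA and which acts as a repressor when no receptor fragment is bound, was lower in mutant cultures. It read 11.30 and 11.21 there, against 11.78 and 11.67 in wild-type cultures. The pairs did not overlap, and the means were 11.26 ± 0.064 and 11.73 ± 0.081 (SD, n = 2 each). The difference was -0.47 (SE 0.098, 95% interval -0.69 to -0.24, limma adjusted p = 0.00866), or 1.38-fold lower in the mutant, and 17.3% of all genes tested had a larger absolute difference. The call ended without mutant replicate 2 (-0.42, adjusted p = 0.106). Where an array is left out, here and in the results that follow, its genotype has 1 array. The spread then comes from the pair of the other genotype and from a value pooled over all genes. Without either mutant array the SE was 0.174 for Dll4 and 0.181 for Notch2, though their wild-type SDs were 0.0022 and 0.22. A call lost or gained without a mutant array thus says little about a gene's own replicates.

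All 3 Rbpj probe sets were lower in mutant cultures, by different amounts. The dimmest read 8.91 and 8.91 in mutant cultures, against 9.36 and 9.21 in wild-type cultures, a difference of -0.37 (adjusted p = 0.0488 with all 34945 probe sets tested). The middle one read 10.00 and 9.91 in mutant cultures, against 10.01 and 10.26 in wild-type cultures, and its difference of -0.18 missed the threshold (adjusted p = 0.359). When all 34945 probe sets were tested without the filter, 15.5% passed (5.96% higher, 9.56% lower), and 3 of the 21 Notch probe sets did, all lower. On the middle Rbpj probe set the nearest values of the 2 genotypes were 10.00 and 10.01.

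**Figure D2:**
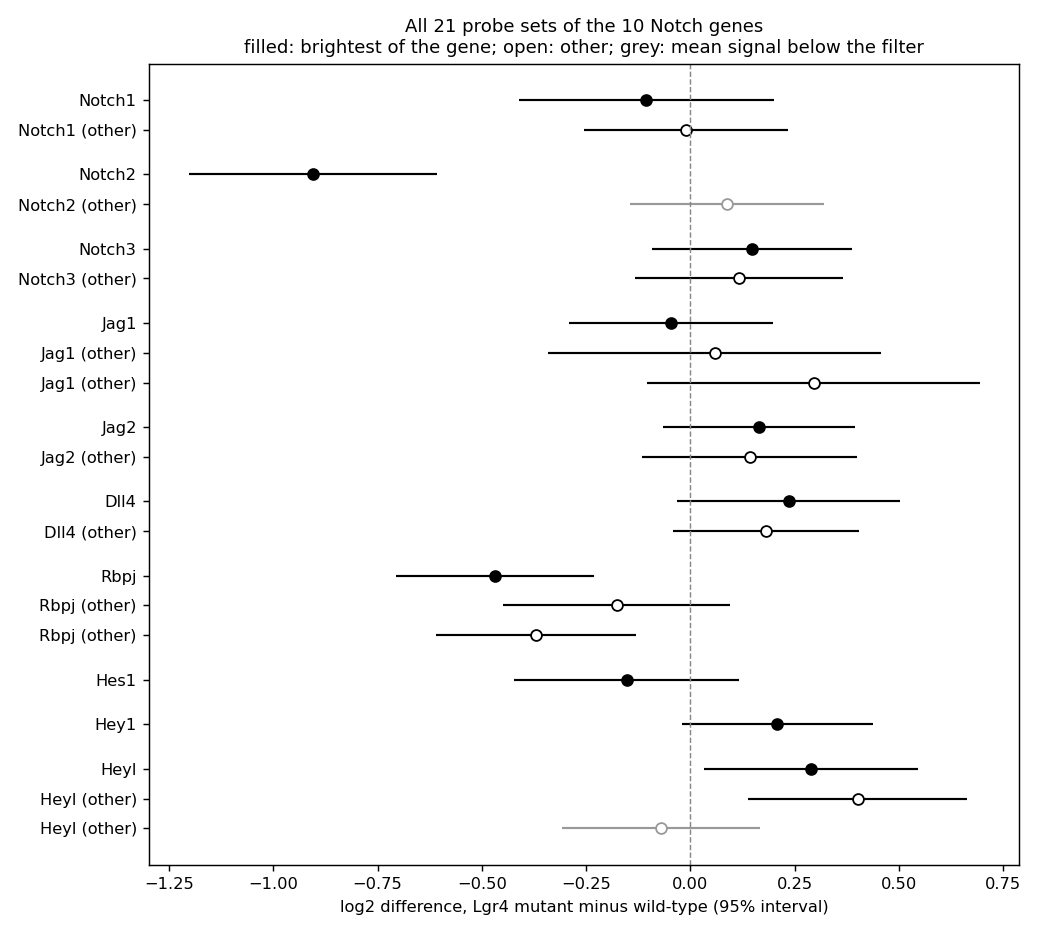
Log2 difference (Lgr4 mutant minus wild-type, horizontal axis) of each of the 21 probe sets with its 95% interval, from a limma fit to all 34945 single-gene probe sets without the signal filter. Filled points are the brightest probe set of a gene, open points its others and grey points those below the filter. The 3 probe sets that passed in this fit, 1 for Notch2 and 2 for Rbpj, lie left of 0.

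Neither Hes1, Hey1 nor Heyl passed the test, and their differences had different signs. Hes1, a repressor that is a direct Notch target in many tissues, read 8.72 and 8.83 in mutant cultures, against 8.81 and 9.05 in wild-type cultures. The pairs overlapped narrowly, and the difference was -0.15 (95% interval -0.41 to 0.10, adjusted p = 0.331). It passed only without wild-type replicate 1 (-0.27, adjusted p = 0.0494), of the 11 alternatives run. Hey1, a repressor of the related Hairy/E(spl)-YRPW family, read 7.14 and 7.24 in mutant cultures, against 6.996 and 6.97 in wild-type cultures. Those pairs did not overlap, and the difference of 0.21 had a 95% interval of -0.0073 to 0.42 (adjusted p = 0.13). Hes1 and Hey1 each had 1 probe set.

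Heyl, a Hey family member found in vascular smooth muscle, was the target nearest the threshold. It read 7.04 and 6.86 in mutant cultures, against 6.595 and 6.72 in wild-type cultures, without overlap. The means were 6.95 ± 0.13 and 6.66 ± 0.087 (SD, n = 2 each), a difference of 0.29 (SE 0.11, 95% interval 0.048 to 0.53, unadjusted p = 0.0245, limma adjusted p = 0.0715). Centring the arrays on their medians moved it past the threshold (0.34, adjusted p = 0.0416), as did omitting wild-type replicate 2 (0.35, adjusted p = 0.0206). Of the other probe sets, 1 read 6.58 and 6.36 in mutant cultures, against 6.01 and 6.13 in wild-type cultures, and its difference of 0.40 gave an adjusted p of 0.0516 with all probe sets tested and of 0.0394 with those above the filter. The remaining one lay below the filter and read 5.19 and 5.11 in mutant cultures, against 5.16 and 5.28 in wild-type cultures. Averaged over its probe sets, Heyl fell under the filter and gave no value.

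**Figure D3:**
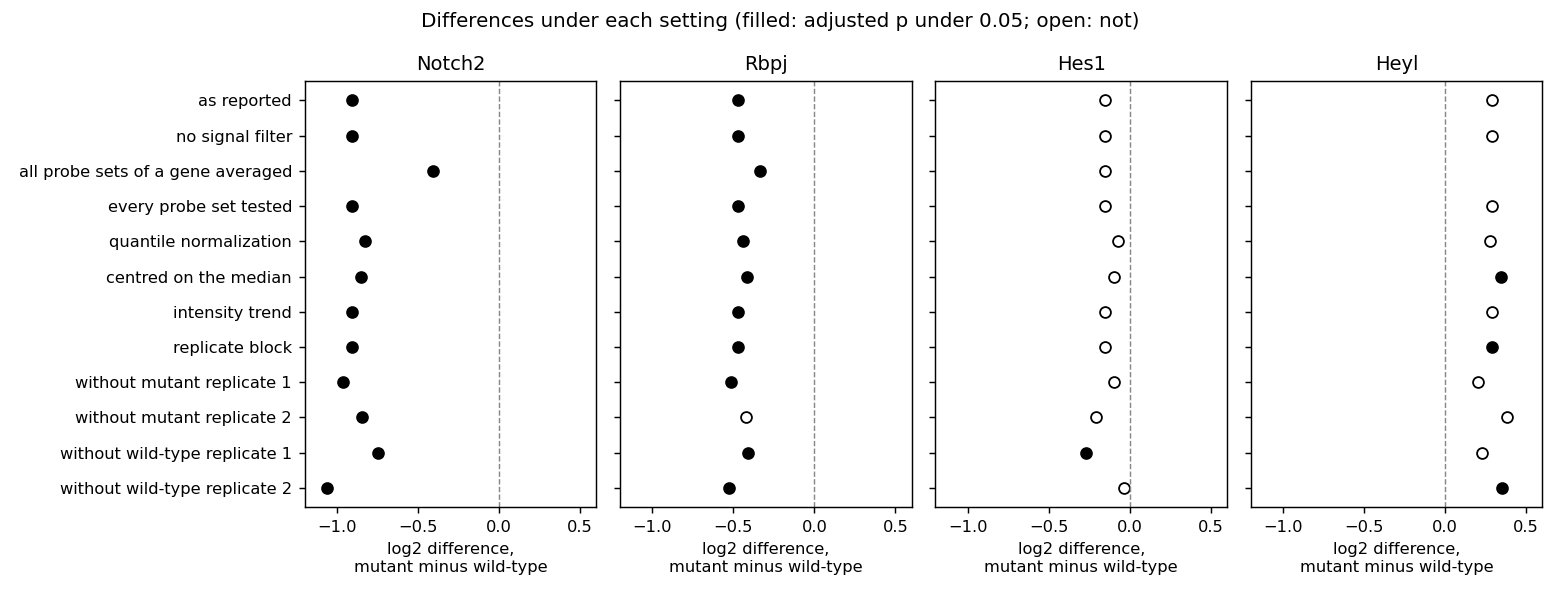
Log2 difference (Lgr4 mutant minus wild-type, horizontal axes) of Notch2, Rbpj, Hes1 and Heyl as reported and under each alternative (vertical axis). Filled points had an adjusted p under 0.05. Notch2 stayed between -1.06 and -0.41 and passed in all 11 alternatives, Rbpj lost its call without mutant replicate 2, and Heyl has no point for averaged probe sets.

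In a list of 56 further pathway genes, 52 had a single-gene probe set in the tables used here and 46 passed the filter. Of the 46 tested, 2 rose, 11 fell and 33 did not pass, or 4.35% higher and 23.9% lower, against 11.1% and 18.7% of all genes tested. In all, 28.3% of the list passed, against 29.8% of all genes tested. That share lies near the background and is not a result about the list. The median difference was -0.12, against -0.03 over all genes tested, and no gene of the list reached 2-fold. The counts depended on scaling: 4 rose and 6 fell when arrays were centred on the median of the tested genes, and 3 rose and 6 fell after quantile normalization. Over all genes tested, 37.1% of the calls were higher in the mutant, and 48.5% were after centring.

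The genes that passed the threshold and fell by 0.5 or more were listed under several steps of the pathway. Adam10, the protease that makes the first ligand-induced cut, read 11.08 and 11.07 in mutant cultures, against 11.78 and 11.57 in wild-type cultures, a difference of -0.60 (adjusted p = 0.00373). When its probe sets were averaged it was -0.35 (adjusted p = 0.0499). Adam17, a related protease, did not pass (-0.11, adjusted p = 0.434), a gene named after its value was seen. Poglut1, which adds glucose to the extracellular repeats of Notch, read 9.07 and 9.06 in mutant cultures, against 9.73 and 9.46 in wild-type cultures (-0.52, adjusted p = 0.0101).

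Aph1b, a gamma-secretase subunit, read 9.11 and 8.91 in mutant cultures, against 9.89 and 9.32 in wild-type cultures (-0.59, adjusted p = 0.0335). The wild-type arrays lay further apart than the nearest mutant and wild-type values, and the call ended in 4 of 11 alternatives, with differences of -0.59 when every probe set was tested, -0.52 after quantile normalization, -0.54 after centring and -0.50 without mutant replicate 2. Without wild-type replicate 1 it was -0.31. Ctbp2, a corepressor that binds many repressors, read 9.66 and 9.74 in mutant cultures, against 10.44 and 10.17 in wild-type cultures (-0.60, adjusted p = 0.00584).

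Of 14 tested genes that handle traffic and turnover of receptors and ligands, 2 rose, 4 fell and 8 did not pass. Over all genes tested 11.1% rose and 18.7% fell. With so few genes, the count is not read as a result about this step. Fbxw7, the ubiquitin ligase subunit that marks the Notch intracellular domain for degradation, read 8.51 and 8.49 in mutant cultures, against 9.18 and 8.97 in wild-type cultures (-0.58, adjusted p = 0.00485). Mib1, the ubiquitin ligase that lets ligands be internalised, read 9.25 and 9.33 in mutant cultures, against 10.01 and 9.60 in wild-type cultures (-0.52, adjusted p = 0.0245). The Mib1 call ended when probe sets were averaged (-0.25, adjusted p = 0.109) and on omitting mutant replicate 1 (-0.48, adjusted p = 0.0911), and without wild-type replicate 1 it was -0.31. Dtx2, a Deltex ubiquitin ligase that binds Notch, rose, reading 9.80 and 9.77 in mutant cultures, against 9.10 and 9.15 in wild-type cultures (0.66, adjusted p = 0.00125). The other gene that rose, Neurl1a, a Neuralized ligase named after its value was seen, did so by 0.29 (adjusted p = 0.0439). Its call ended in 6 of 11 alternatives: when probe sets were averaged (0.082, adjusted p = 0.477), without the filter, with every probe set tested, with the intensity trend and on omitting either mutant array.

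The remaining receptor, ligands and classical targets did not pass. Notch4, the receptor of endothelial cells, read 7.76 and 7.51 in mutant cultures, against 7.89 and 7.99 in wild-type cultures (-0.30, adjusted p = 0.0774). It passed without wild-type replicate 1 (-0.36, adjusted p = 0.0413). Dlk1, a Delta-like protein of preadipocytes that inhibits adipogenesis, read 6.77 and 6.90 in mutant cultures, against 6.599 and 6.51 in wild-type cultures (0.28, adjusted p = 0.0654). It passed when its probe sets were averaged (0.31, adjusted p = 0.0266), after centring (0.33, adjusted p = 0.0425) and on omitting wild-type replicate 1 (0.33, adjusted p = 0.0273). Dll1 was at the filter, with means of 6.27 in mutant and 6.10 in wild-type cultures (0.17, adjusted p = 0.276).

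Nrarp, a feedback inhibitor that Notch induces, had means of 6.85 in mutant and 6.71 in wild-type cultures (0.13, 95% interval -0.099 to 0.36, adjusted p = 0.355). Hes5 means were 7.21 in mutant and 7.22 in wild-type cultures (-0.010, 95% interval -0.22 to 0.20), with a sign that turned under quantile normalization and centring. Hey2 lay far below the filter, at 3.95 and 3.77 in mutant cultures and 3.76 and 3.62 in wild-type cultures.

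**Figure D4:**
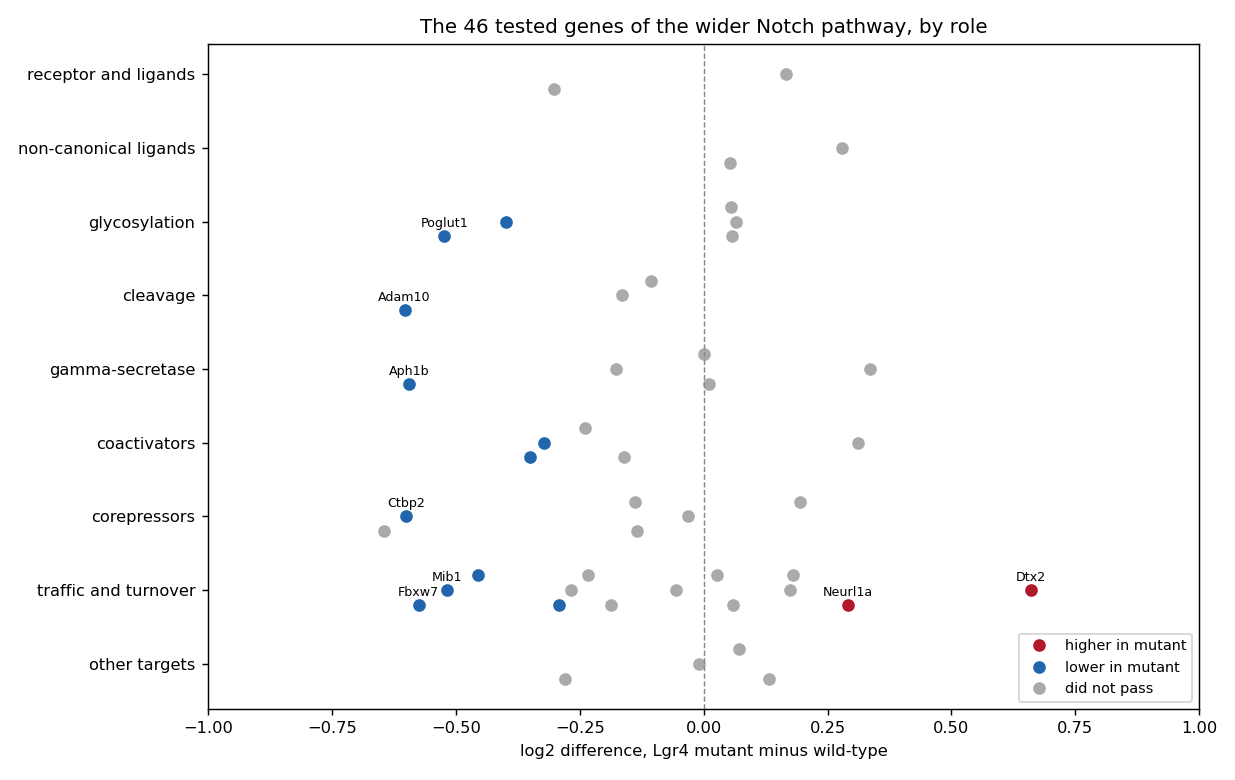
Log2 difference (Lgr4 mutant minus wild-type, horizontal axis) of the 46 tested genes of the wider pathway list, 1 point a gene, in lines by role, with small vertical offsets for legibility. Red points rose (2 genes), blue points fell (11 genes) and grey points did not pass; names are given for genes that rose and for those that fell by at least 0.5.

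The 4 tested genes whose pattern was most like that of Notch2, by Euclidean distance over the 4 arrays after centring each gene, were Lima1 (distance 0.0585), Il13ra1 (0.059), Igsf3 (0.0638) and Mex3b (0.0699). Their differences ran from -0.94 to -0.86. With 4 values a gene, 2 in each group, there is little to tell patterns apart.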

How the data were processed

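RNA of 4 cultures was measured on a 3' expression array. The deposited log2 signals were made by the authors with Partek 6.6 and RMA, per the submitters' processing notes; the variant of RMA is not given in the sources used here. RMA compresses differences near background. The table held 45101 probe sets, of which 64 controls were left out; 34945 named 1 gene, 932 several and 9160 none in the platform annotation, and only those naming 1 gene were used. Symbols were updated through the RefSeq gene table (GRCm38.p6).

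For each gene the brightest probe set (mean over 4 arrays) was tested if its mean exceeded the 40th percentile (6.13), leaving 13173 genes. The genotype effect was fitted by limma 3.58.1 under R 4.3.3 (lmFit, eBayes without trend; Benjamini-Hochberg, threshold 0.05), with 2 residual and 6.21 prior degrees of freedom. Intervals are 95% limits from this fit. Differences are mutant minus wild-type. Signals of different probe sets were not compared as levels, but the marker sums add them, so bright probe sets weigh most there. The number of arrays limits the precision.

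Members and lists were chosen with earlier results of these data known. Named genes were all members and wider-list genes past the threshold with an absolute difference of at least 0.5. Lgr4 and 6 preset genes (Notch4, Dll1, Dlk1, Hes5, Hey2, Nrarp) were also named. So were the first 3 of a marker list and the 4 genes nearest the called member with the largest difference. Outside this rule, Adam17, Neurl1a and the markers Tagln, Ppargc1a and Tie1 were named after their values were seen. In the list named for lymphocytes 2 genes were tested. Ptprc fell (-0.58) and Cd3e did not pass (0.30), so no direction is given for lymphocytes. Markers of mesothelium (3 tested, none passed) and brown fat (6 tested, 4 rose, 2 did not pass) were also read.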

Additional observations from a re-analysis of the deposited data

How the results depend on the processing

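Of 109 repeats for the 10 genes (11 alternatives, without Heyl for averaged probe sets), 98 kept direction and side of the threshold. Dropping the filter, testing every probe set, the intensity trend and the replicate block left each difference unchanged. In those repeats only the side of the threshold could change, not the direction. Notch2 kept its call in all 11. Signs turned for values near 0: Jag1 when probe sets were averaged (0.10), after quantile normalization (0.027) and after centring (0.0066), and Hes5 after quantile normalization (0.0069) and centring (0.044). Leaving out 1 array at a time gave -0.14 to 0.041 for Jag1, -0.25 to 0.037 for Notch1 and -0.056 to 0.036 for Hes5. It also gave 1 to 3 of the 10 genes called (0 to 1 higher, 1 to 3 lower), 6 to 22 of the wider list (1 to 8 higher, 5 to 15 lower) and 1851 to 6349 of all genes (809 to 2627 higher, 1042 to 3722 lower). The lowest of these counts over all genes came without mutant replicate 1, and that without mutant replicate 2 was 2104; the highest came without wild-type replicate 2. Of the 10 genes, 1 was higher after centring and 1 with the replicate block. In the wider list 1 rose without the filter, with every probe set tested and with the intensity trend, and 4 rose after centring; 7 fell with averaged probe sets and 6 after quantile normalization or centring. The causes were not tested.

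Arrays share replicate numbers across genotypes, but nothing says that the numbers pair them; deviations of same-numbered arrays correlated at 0.159 across genes, which are not independent replicates. The block fit gave every gene the same SE (0.117), a spread pooled over all genes, so a call gained there says little about a gene's own replicates. With the number as a replicate block 4879 genes were called against 3924, Heyl passed (0.29, adjusted p = 0.0371), as did Notch4 (adjusted p = 0.0289) and Dlk1 (adjusted p = 0.0456), and 5 genes of the wider list rose. With 2 arrays a genotype, differences near 0.3 such as Heyl, Notch4 and Dlk1 sit at the limit of what the test passes, and Dll4 and Dll1 lie close to the signal filter.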
